A study of Homo sapiens with 30 samples.

Results

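The endoplasmic reticulum stress response was followed through 10 genes of its folding and signalling arms. The 10 genes are HSPA5, HSP90B1, DNAJB9, HERPUD1, SDF2L1, PDIA4, CALR, XBP1, ATF4 and DDIT3. They were taken by symbol from the 63138 genes of the count table. HSPA5 was chosen by its values in these data, namely its higher level with TNF than in Control and its difference between the EV-IL1b and EV-TNF groups, and the other 9 genes were listed with it as genes of the same response. The values of those contrasts are therefore given for all 10 genes as a description without a test, and so are the HSPA5 values of the other TNF and cytokine vesicle contrasts. The 10 genes passed the filter on low counts in every comparison.

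RNA was measured in hCMEC/D3, an immortalised human brain endothelial line widely used to model the blood-brain barrier, in 10 groups of 3 libraries. In the 5 direct groups the cells were kept for 12 h in serum-free medium without a stimulus (Control) or with 1 of 4 stimuli. These were 25 ng/mL of TNFα (TNF), 10 ng/mL of IL-1β (IL1b), 50 ng/mL of C5a, a fragment of complement (C5a), and 200 nM of epinephrine, the stress hormone (Epinephrine). In the 5 vesicle groups the same line was exposed for 12 h to extracellular vesicles that had been enriched from the medium of cells treated in those 5 ways. Their names carry the prefix EV before the name of the donor cells' treatment, as in EV-Control for vesicles of unstimulated cells. All groups share 1 immortalised line, the sources used here do not give the vesicle dose, and all libraries carry the same batch number. The sources do not say that the 3 libraries of a group came from separate cultures, so the p-values measure the spread between these libraries, which may be technical. Library totals ran from 16643961 to 22112326 counts.

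Proteins that enter the endoplasmic reticulum are folded there by chaperones and oxidoreductases, and unfolded proteins activate the sensors IRE1, PERK and ATF6. IRE1 splices XBP1 RNA into the form that encodes an active transcription factor, PERK favours the translation of ATF4, which in turn can raise DDIT3 (CHOP), and cleaved ATF6 raises the large chaperones and XBP1 itself. Endothelial cells secrete and display many glycoproteins that pass through this folding system. Gene counts do not separate spliced from unspliced XBP1 RNA, and they do not show the translation of ATF4.

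Sequence elements known from promoters of this pathway were searched in the 10 genes. The ER stress element is CCAAT, 9 bases and CCACG, bound by NF-Y at the first part and by ATF6 or XBP1 at the second. The ER stress element II is ATTGG, 1 base and CCACG. Both were searched on both strands of RefSeq promoter windows (GRCh38.p14, 250 bases before and 50 bases after each start), in which all 10 genes were found by symbol. The first element occurred in 27 of 35116 windows (0.0769%) and the second in 19 (0.0541%). The word CCACG alone occurred in 38.1% of windows and CCAAT in 34.6%, and each full element overlaps 1 match of each of these words, ATTGG being CCAAT on the other strand. Below are the upstream stretches of the 5 genes whose element lies outside annotated exons, shown because they hold the full element. Each is written 5′ to 3′ on the strand of its gene with the element in capitals.
HSPA5 (chr9:125241344-125241593, minus strand): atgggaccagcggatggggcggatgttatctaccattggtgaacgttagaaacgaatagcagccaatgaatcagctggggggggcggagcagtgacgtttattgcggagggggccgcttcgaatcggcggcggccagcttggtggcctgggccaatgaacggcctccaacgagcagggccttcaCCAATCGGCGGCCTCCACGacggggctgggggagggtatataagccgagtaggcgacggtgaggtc
CALR (chr19:12938359-12938577, plus strand): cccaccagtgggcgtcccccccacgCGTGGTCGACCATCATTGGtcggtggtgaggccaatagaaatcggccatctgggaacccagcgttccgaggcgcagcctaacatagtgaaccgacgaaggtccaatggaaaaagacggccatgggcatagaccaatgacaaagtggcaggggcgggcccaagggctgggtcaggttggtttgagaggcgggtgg
XBP1 (chr22:28800598-28800819, minus strand, upstream of the second of 2 listed starts): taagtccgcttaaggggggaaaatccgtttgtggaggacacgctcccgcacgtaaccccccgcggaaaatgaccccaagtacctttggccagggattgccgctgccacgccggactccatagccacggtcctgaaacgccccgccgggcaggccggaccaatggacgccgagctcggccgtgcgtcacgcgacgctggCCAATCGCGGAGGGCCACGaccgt
HERPUD1 (chr16:56931892-56932047, plus strand, element II): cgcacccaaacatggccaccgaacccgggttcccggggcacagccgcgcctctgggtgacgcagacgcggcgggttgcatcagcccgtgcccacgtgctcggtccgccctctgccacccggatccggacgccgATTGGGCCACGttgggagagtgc
SDF2L1 (chr22:21642052-21642260, plus strand, element II): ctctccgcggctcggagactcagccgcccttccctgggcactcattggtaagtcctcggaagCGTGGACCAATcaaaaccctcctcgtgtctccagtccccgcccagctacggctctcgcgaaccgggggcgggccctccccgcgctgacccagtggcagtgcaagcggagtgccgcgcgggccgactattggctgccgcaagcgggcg

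In HSPA5 the element spans -66 to -48 from the start site, and in XBP1 -52 to -34. In CALR the capitals hold it on the other strand, at -225 to -207, where it reads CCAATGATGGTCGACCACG. HSP90B1 had 2 matches in its window, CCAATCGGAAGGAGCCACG at -194 to -176 and, on the other strand, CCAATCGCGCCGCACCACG at -89 to -71. The shorter element II lay at -117 to -107 in HERPUD1 and on the other strand at -188 to -178 in SDF2L1, where it reads ATTGGTCCACG. HERPUD1 also held TGATGCAA, searched as a C/EBP-ATF type site, on the other strand at -176 to -169, a word found in 0.866% of windows. Neither full element was found in the windows of DNAJB9, PDIA4, ATF4 or DDIT3. Such matches describe letters and were not tested as binding sites.

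**Figure D1:**
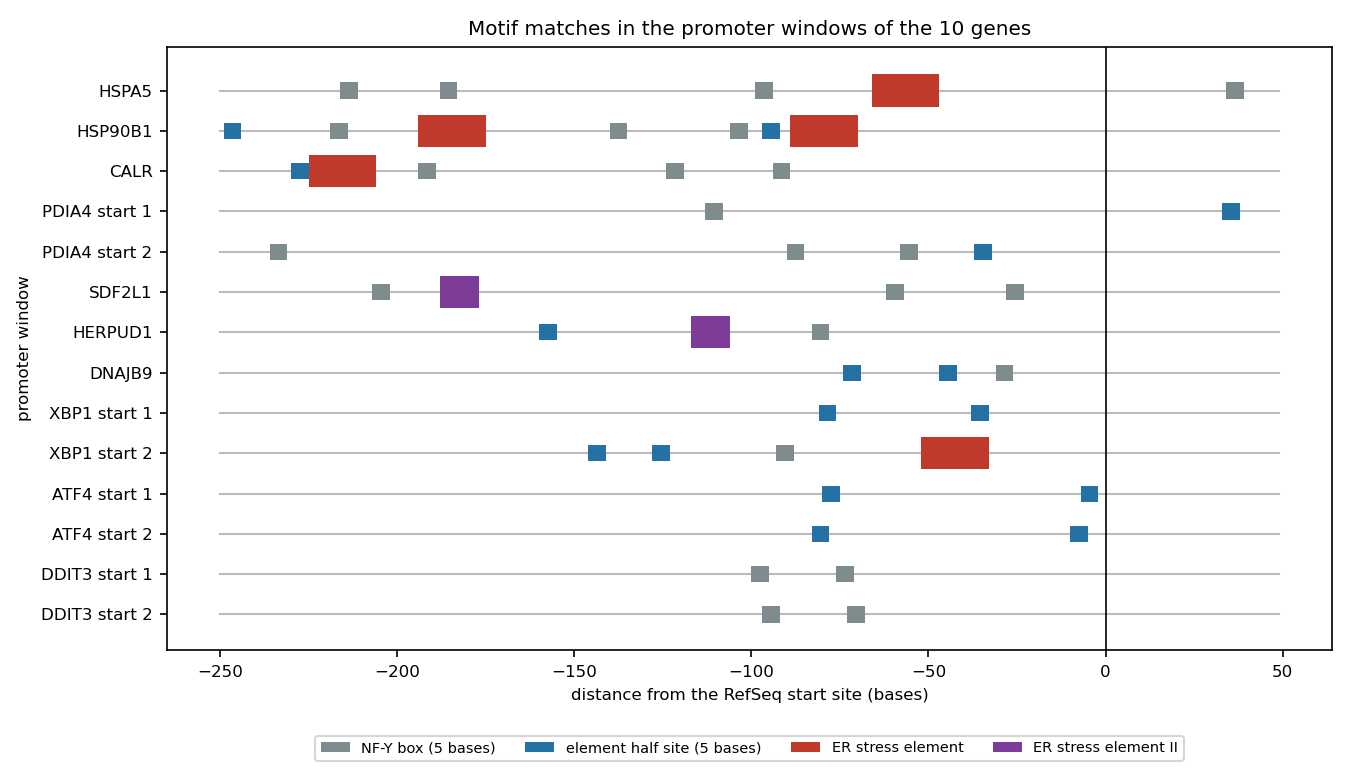
Positions of motif matches in the 14 RefSeq promoter windows of the 10 genes (x axis, bases from the start site). The ER stress element appears in HSPA5, HSP90B1, CALR and XBP1, and the ER stress element II in SDF2L1 and HERPUD1.

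In the GENCODE 29 annotation of GRCh38 the genes lie as follows. HSPA5 is at chr9:125234853-125241330 (minus strand), HSP90B1 at chr12:103930107-103953645 (plus), DNAJB9 at chr7:108569568-108574850 (plus), HERPUD1 at chr16:56932048-56944863 (plus) and SDF2L1 at chr22:21642261-21644298 (plus). PDIA4 is at chr7:149003062-149028641 (minus), CALR at chr19:12938578-12944489 (plus), XBP1 at chr22:28794555-28800597 (minus), ATF4 at chr22:39519695-39522685 (plus) and DDIT3 at chr12:57516588-57521737 (minus). DNAJB9, HSP90B1, CALR and DDIT3 overlap genes of the opposite strand, and whether the counting used the strand is not given in the sources used here, so some of their counts may belong to those neighbours. Pseudogene copies of the 10 genes reached at most 29 counts in a library (ATF4P3).

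Levels between genes were compared per length, as RPKM, the CPM per kilobase of exon. In Control cells CALR, a calcium-binding lectin chaperone, was at 384 ± 8.57 RPKM (SD, n = 3, as throughout). HSPA5 (BiP), the Hsp70 of the endoplasmic reticulum, was at 161 ± 8.44 RPKM, and its Hsp90 partner HSP90B1 (GRP94) was at 160.2 ± 12.1 RPKM. ATF4 followed at 119.9 ± 0.757, PDIA4 at 70.6 ± 2.25, XBP1 at 32.5 ± 0.528, SDF2L1 at 29.7 ± 1.19 and HERPUD1 at 14.4 ± 0.521 RPKM. DNAJB9 at 7.65 ± 0.552 and DDIT3 at 5.58 ± 0.632 RPKM were the lowest, and DDIT3 had the largest standard errors of the comparisons below.

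Counts were scaled with trimmed means of M-values (TMM), which assumes that most genes do not change, and all CPM (library-size scaled counts) below are scaled this way. The scaling factors of the TNF libraries were 0.842 to 0.861 against 0.974 to 1.045 in all others. Scaling by total counts alone put the median of all genes at -0.29 on the log2 scale in TNF vs Control, and at -0.09 in IL1b vs Control. Under that scaling 2283 genes were higher and 7783 lower with TNF, against 4369 and 4019 in the main analysis, and 2919 higher and 4637 lower with IL1b, against 3824 and 3595. TNF values of the 10 genes are therefore also given under total counts.

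HSPA5, the main chaperone of the organelle and the inhibitor of its stress sensors, was counted in Control at 622, 603 and 667 CPM in the 3 libraries. It was at 1737, 1819 and 1723 CPM with TNF, at 1248, 1267 and 1238 CPM with IL1b, at 731, 734 and 740.2 CPM with C5a and at 916, 1003 and 936 CPM with Epinephrine. All 4 direct stimuli had every library above every Control library, and TNF, then IL1b, then Epinephrine, then C5a did not overlap with each other. The TNF libraries were 2.79-fold above Control (log2 1.48, SE 0.043), and log2 1.20 under total counts. HSPA5 rose with IL1b by log2 0.997 (SE 0.043, adjusted p = 3.2e-20), with Epinephrine by 0.60 (SE 0.042, adjusted p = 2.5e-13) and with C5a by 0.23 (SE 0.042, adjusted p = 8.9e-05). These comparisons share the 3 Control libraries with the one that chose the gene.

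Among the vesicle groups HSPA5 was at 659, 683 and 714 CPM in EV-Control, 879.6, 899.8 and 910.0 CPM in EV-TNF, 1056, 969 and 981 CPM in EV-IL1b, 690.0, 693 and 692 CPM in EV-C5a and 880.2, 896 and 897 CPM in EV-Epinephrine. The EV-TNF, EV-IL1b and EV-Epinephrine libraries lay above all EV-Control and EV-C5a libraries, and the lowest EV-IL1b library lay above the highest EV-TNF library. Against EV-Control the log2 difference was 0.39 (SE 0.030) for EV-TNF and 0.55 (SE 0.030) for EV-IL1b, as a description. With EV-Epinephrine it rose by 0.38 (SE 0.030, adjusted p = 5.7e-15). EV-IL1b was 0.16 (SE 0.030) above EV-TNF, and 0.12 without EV-IL1b replicate 1. From the highest group mean down, the order was TNF, IL1b, EV-IL1b, Epinephrine, EV-TNF, EV-Epinephrine, C5a, EV-C5a, EV-Control and Control. In that order the libraries of EV-IL1b and Epinephrine, of EV-TNF and EV-Epinephrine, of EV-C5a and EV-Control, and of EV-Control and Control overlapped.

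**Figure D2:**
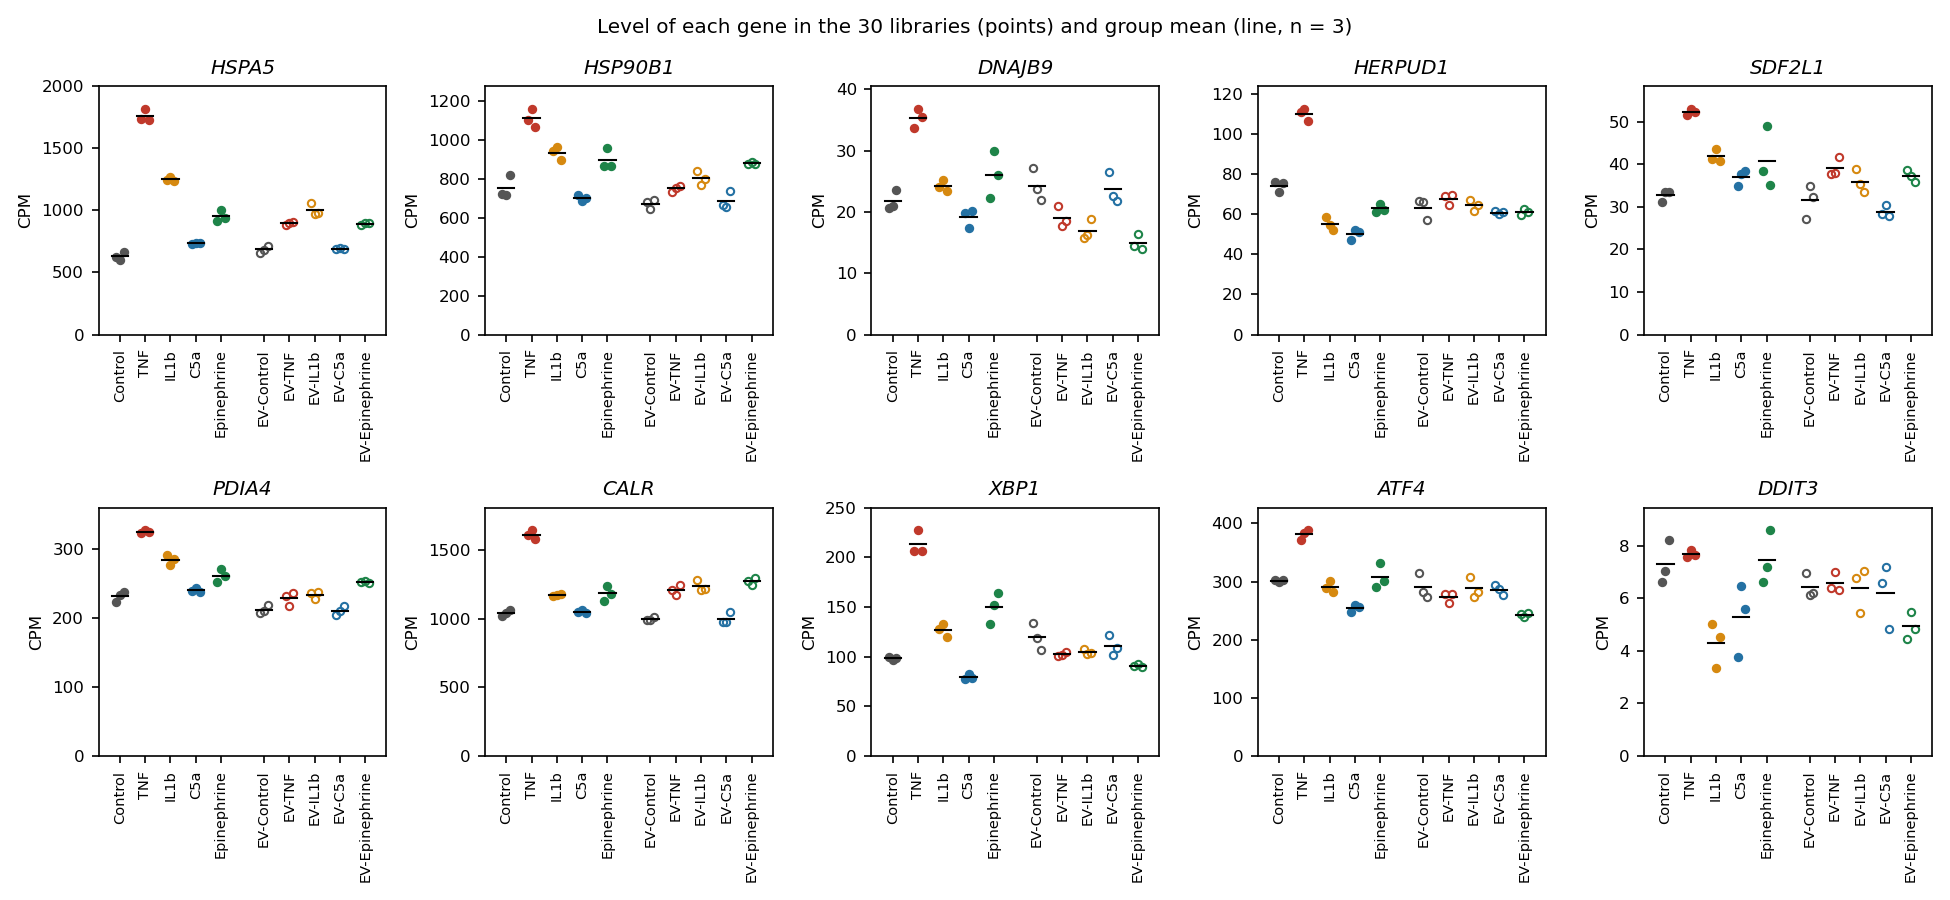
Level of each of the 10 genes in all 30 libraries (y axis, CPM from 0; points are libraries, lines are means of 3; filled points direct groups, open points vesicle groups). HSPA5 averages 631 ± 32.99 CPM in Control and 1759.9 ± 51.7 CPM with TNF, and the XBP1 libraries of EV-Epinephrine all lie below those of EV-Control.

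CALR, HSP90B1 and PDIA4 were higher than Control, as HSPA5 was, with TNF, IL1b and Epinephrine. With the vesicles of cells given these stimuli they were higher than EV-Control. The EV-TNF means of HSP90B1 (750 CPM) and PDIA4 (228 CPM) lay close to those of Control (752 and 231 CPM). That of CALR lay above Control (1210 against 1043 CPM). CALR was at 1019, 1042 and 1066 CPM in Control, 1607, 1646 and 1584 CPM with TNF, 1163, 1172 and 1180.3 CPM with IL1b and 1131, 1241 and 1182 CPM with Epinephrine. The TNF libraries were log2 0.63 (SE 0.039) above Control, and 0.35 under total counts. CALR rose with IL1b by 0.18 (SE 0.039, adjusted p = 0.0003) and with Epinephrine by 0.19 (SE 0.039, adjusted p = 0.00026), and the C5a difference was 0.02 (95% interval -0.05 to 0.10). In the vesicle groups CALR was at 993, 990.4 and 1015 CPM in EV-Control, 1209.9, 1175 and 1244 CPM in EV-TNF, 1285, 1213 and 1217 CPM in EV-IL1b and 1274, 1244 and 1297 CPM in EV-Epinephrine, with no overlap with EV-Control in any of the 3. It rose by 0.27 with EV-TNF (SE 0.029, adjusted p = 1.8e-10), 0.31 with EV-IL1b (SE 0.029, adjusted p = 5.4e-12) and 0.35 with EV-Epinephrine (SE 0.029, adjusted p = 6.8e-14).

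HSP90B1, which folds integrins and Toll-like receptors, was at 752 ± 56.8 CPM in Control and 1110.4 ± 46.7 CPM with TNF, a log2 difference of 0.56 (SE 0.048), or 0.29 under total counts. Control replicate 3 was its highest Control library, at 818 CPM against 721 and 718. HSP90B1 rose with IL1b by 0.32 (SE 0.048, adjusted p = 9.9e-07) and with Epinephrine by 0.26 (SE 0.048, adjusted p = 6.8e-05). With vesicles it went from 679, 643 and 693 CPM in EV-Control to 874, 885 and 878 CPM in EV-Epinephrine, with no overlap. That rise was 0.39 (SE 0.038, adjusted p = 1.5e-08), beside 0.26 with EV-IL1b (SE 0.038, adjusted p = 1.8e-05) and 0.16 with EV-TNF (SE 0.038, adjusted p = 0.0052).

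PDIA4 (ERp72), a disulfide isomerase, was at 224, 233 and 238 CPM in Control and 323, 327 and 325 CPM with TNF, a log2 difference of 0.49 (SE 0.042), or 0.21 under total counts. It rose by 0.31 with IL1b (SE 0.042, adjusted p = 2.1e-07) and 0.18 with Epinephrine (SE 0.042, adjusted p = 0.0011). In the vesicle groups it rose by 0.25 with EV-Epinephrine (SE 0.036, adjusted p = 3.2e-07) and 0.14 with EV-IL1b (SE 0.036, adjusted p = 0.0051). The EV-TNF difference of 0.11 (SE 0.036, adjusted p = 0.042) had overlapping libraries, and the adjusted p was 0.062 with DESeq2, 0.17, 0.11, 0.15 and 0.22 without EV-Control replicate 1, EV-Control replicate 2, EV-TNF replicate 1 and EV-TNF replicate 3.

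SDF2L1, a small partner of the HSPA5 cycle, was at 31.2, 33.4 and 33.5 CPM in Control, 51.6, 53.1 and 52.3 CPM with TNF and 41.3, 43.7 and 40.7 CPM with IL1b. The TNF difference was 0.68 (SE 0.082), or 0.40 under total counts, and the gene rose with IL1b by 0.37 (SE 0.083, adjusted p = 0.0004). With Epinephrine it was at 38.3, 49.1 and 35.1 CPM, a rise of 0.33 (SE 0.083, adjusted p = 0.0032) that became 0.18 (adjusted p = 0.062) without Epinephrine replicate 2. Among the vesicle groups it was at 27.2, 34.9 and 32.4 CPM in EV-Control and rose by 0.31 with EV-TNF (SE 0.075, adjusted p = 0.0029) and 0.24 with EV-Epinephrine (SE 0.076, adjusted p = 0.016). Without EV-Control replicate 1, its lowest library, these became 0.21 (adjusted p = 0.066) and 0.15 (adjusted p = 0.22). Without EV-Epinephrine replicate 1 the latter was 0.22 (adjusted p = 0.083). The summed level of HSPA5, HSP90B1, CALR, PDIA4 and SDF2L1 was 2689.5 ± 115.1 CPM in Control, 4859.9 ± 131 with TNF, 3683 ± 41.5 with IL1b, 2765 ± 6.11 with C5a and 3336 ± 167 with Epinephrine. It was 2599 ± 62.6 CPM in EV-Control, 3124 ± 61.2 in EV-TNF, 3313 ± 127 in EV-IL1b, 2618 ± 94.0 in EV-C5a and 3331 ± 23.6 in EV-Epinephrine.

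HERPUD1, a membrane protein that organises the degradation of misfolded proteins, went in both directions among the direct groups. It was at 75.99, 71.1 and 75.4 CPM in Control, 111, 113 and 107 CPM with TNF, 58.7, 54.8 and 52.03 CPM with IL1b, 47.2, 52.03 and 51.3 CPM with C5a and 61.4, 65.3 and 62.04 CPM with Epinephrine. The TNF libraries lay above all Control libraries and those of the other 3 stimuli below all of them. The TNF difference was 0.57 (SE 0.056), or 0.29 under total counts. HERPUD1 fell by 0.42 with IL1b on the log2 scale (SE 0.058, adjusted p = 2.3e-07), by 0.55 with C5a (SE 0.059, adjusted p = 5.1e-09) and by 0.23 with Epinephrine (SE 0.058, adjusted p = 0.0029). Within the vesicle groups its means ran from 60.9 to 67.9 CPM, and against EV-Control the adjusted p was 0.27 for EV-TNF, 0.63 for EV-Epinephrine and higher for the other two.

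DNAJB9 (ERdj4), a co-chaperone of HSPA5 that restrains IRE1 and a known XBP1 target, was higher with TNF and lower in EV-TNF, EV-IL1b and EV-Epinephrine than in EV-Control. It was at 20.7, 20.9 and 23.5 CPM in Control and 33.7, 36.9 and 35.5 CPM with TNF, a difference of 0.71 (SE 0.090), or 0.43 under total counts. With Epinephrine it was at 22.2, 29.9 and 25.99 CPM. That difference of 0.27 (SE 0.091, adjusted p = 0.027) had overlapping libraries, and its adjusted p was 0.19 without Epinephrine replicate 2, 0.053 without replicate 3, 0.1 without Control replicate 1, 0.1 without Control replicate 2 and 0.088 with only the groups compared. The differences with IL1b (0.17, 95% interval -0.01 to 0.35) and C5a (-0.17, -0.36 to 0.01) did not pass the test.

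In the vesicle groups DNAJB9 was at 27.1, 23.8 and 21.96 CPM in EV-Control, 20.9, 17.7 and 18.5 CPM in EV-TNF, 15.8, 16.2 and 18.9 CPM in EV-IL1b, 26.5, 22.7 and 21.8 CPM in EV-C5a and 14.4, 16.4 and 13.9 CPM in EV-Epinephrine. The EV-TNF, EV-IL1b and EV-Epinephrine libraries all lay below the lowest EV-Control library. DNAJB9 fell by 0.70 with EV-Epinephrine (SE 0.098, adjusted p = 1.7e-07), by 0.52 with EV-IL1b (SE 0.097, adjusted p = 7.1e-05) and by 0.35 with EV-TNF (SE 0.095, adjusted p = 0.0073). The EV-TNF value was -0.27 (adjusted p = 0.089) without EV-Control replicate 1, the highest control library, and -0.30 (adjusted p = 0.068) without EV-TNF replicate 2.

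XBP1, whose spliced form is the transcription factor of the IRE1 arm, was in the direct groups at 99.6, 96.5 and 98.8 CPM in Control, 207, 227 and 206 CPM with TNF, 128, 132 and 119.9 CPM with IL1b, 77.2, 82.1 and 78.3 CPM with C5a and 133, 152 and 164 CPM with Epinephrine. None of the 4 stimulated groups overlapped with Control, and C5a alone lay below it. The TNF difference was 1.12 (SE 0.058), or 0.84 under total counts. XBP1 rose by 0.62 with Epinephrine (SE 0.058, adjusted p = 3.5e-10) and 0.38 with IL1b (SE 0.058, adjusted p = 1.8e-06), and fell by 0.30 with C5a (SE 0.060, adjusted p = 0.00024).

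In the vesicle groups XBP1 was at 134, 118 and 107 CPM in EV-Control, 100.2, 102 and 105 CPM in EV-TNF, 108, 103 and 103 CPM in EV-IL1b, 122, 102 and 108 CPM in EV-C5a and 90.9, 92.7 and 89.6 CPM in EV-Epinephrine. The 3 EV-Epinephrine libraries were the lowest of the 15 vesicle libraries, and EV-Control replicate 1 was the highest. XBP1 fell by 0.39 with EV-Epinephrine (SE 0.066, adjusted p = 0.0002). Its EV-TNF value of -0.22 (SE 0.066) had an adjusted p of 0.027, which was 0.063, 0.078, 0.083, 0.097 and 0.1 without EV-TNF replicate 3, EV-Control replicate 2, EV-TNF replicate 2, EV-Control replicate 1 and EV-TNF replicate 1. Without EV-Control replicate 1 the value was -0.14. With EV-IL1b it was -0.19 (SE 0.066, adjusted p = 0.055), and with the replicate block the adjusted p was 0.013, with DESeq2 0.032 and without EV-Control replicate 3 0.00023. Other alternatives weakened it: the EV-IL1b value ran from -0.27 to -0.10 over all of them, with an adjusted p of up to 0.23.

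ATF4, the factor of the PERK arm, was at 303, 299 and 303 CPM in Control, 372, 384 and 389 CPM with TNF and 248, 260.1 and 256 CPM with C5a. Its TNF difference of 0.34 (SE 0.046) was 0.06 under total counts, where it was no longer called. ATF4 fell by 0.23 with C5a (SE 0.046, adjusted p = 0.0002) and by 0.25 with EV-Epinephrine (SE 0.044, adjusted p = 5.9e-05), where the libraries were at 244, 239 and 247 CPM against 314, 283 and 274 CPM in EV-Control. DDIT3 (CHOP), the pro-apoptotic factor downstream of ATF4, was the gene of the 10 with the fewest counts, at 6.61, 7.05 and 8.21 CPM in Control. It was at 7.55, 7.85 and 7.63 CPM with TNF, within the Control range, and at 5.003, 3.33 and 4.53 CPM with IL1b, below all Control libraries, a difference of -0.75 (SE 0.18, adjusted p = 0.00057). With C5a its value was -0.46 (SE 0.17, adjusted p = 0.051), and 8 alternatives brought the adjusted p under 0.05. Without C5a replicate 2 it was -0.62 (adjusted p = 0.019), without C5a replicate 1 -0.26 (0.34), and with only the groups compared the adjusted p was 0.024. The DDIT3 value with EV-Epinephrine was -0.38 (SE 0.16, adjusted p = 0.091).

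**Figure D3:**
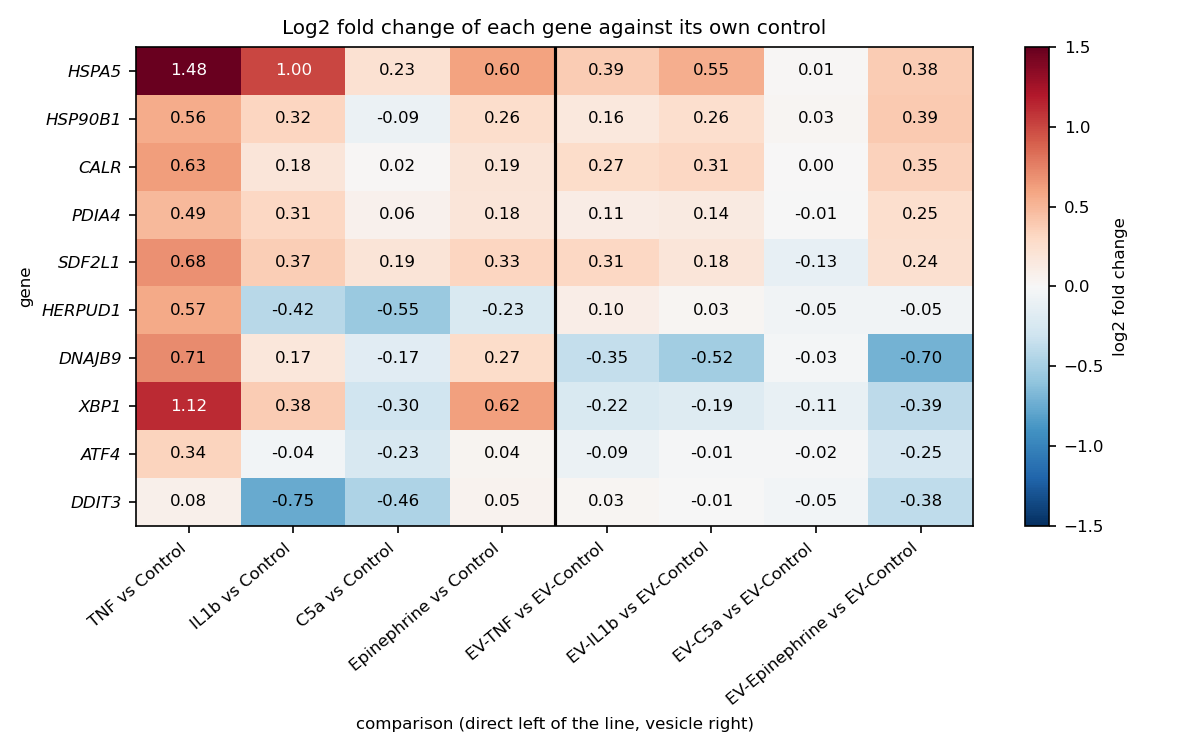
Log2 fold change of each of the 10 genes (rows) in the 4 direct and 4 vesicle comparisons with their own control (columns). HSPA5 reads 1.48 with TNF and 0.55 with EV-IL1b, and XBP1 and DNAJB9 are positive with TNF and Epinephrine and negative with EV-TNF, EV-IL1b and EV-Epinephrine.

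Counted over the 10 genes, with an adjusted p under 0.05 as the threshold, 9 were higher with TNF than in Control, where 27.5% of all 15908 genes tested were higher and 25.3% lower. Under total counts it was 8, without ATF4. The count comes from the choosing contrast and carries no reading. With IL1b 6 were higher and 2 lower (all genes: 24% higher, 22.6% lower). Epinephrine had 7 higher and 1 lower (13.5% and 11.8%), and C5a 1 higher and 3 lower (11.8% and 10.8%). The median log2 difference of the 10 was 0.60 with TNF, 0.24 with IL1b, 0.23 with Epinephrine and -0.13 with C5a, against all-gene medians of -0.01, -0.01, 0.01 and -0.002. Set directly against TNF, IL1b had all 10 lower (19.9% of all genes higher, 21.4% lower), from -0.18 for PDIA4 to -0.99 for HERPUD1 (adjusted p = 1.2e-16). HSPA5 is among the 10, and its value carries no reading because its TNF level was used to choose it. The other genes were listed with HSPA5 when earlier results of these data were known, so their p-values may not be free of that choice. Under total counts 3 of those 10 calls were lost: HSP90B1 and SDF2L1 had adjusted p of 0.42 and 0.22, and PDIA4 had a value of 0.0097. All-gene calls went from 3168 higher and 3412 lower to 6504 and 2041 under that scaling.

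With EV-TNF 5 of the 10 were higher and 2 lower than in EV-Control, where 5.9% of 15918 genes were higher and 7.42% lower. Without EV-Control replicate 1 the total was 3, and with only the 2 groups in the fit it was 5. EV-IL1b had 4 higher and 1 lower (6.49% and 8.14%), and EV-Epinephrine 5 higher and 3 lower (9.12% and 10.5%). The median log2 differences were 0.10, 0.08 and 0.10, against -0.0009, -0.002 and 0.007 over all genes. These 3 comparisons share the EV-Control libraries. HSPA5 is counted among those higher with EV-TNF and EV-IL1b, where its value is a description, so its call there carries no reading. Under total counts the all-gene split with EV-Epinephrine was 1975 higher and 1305 lower, against 1452 and 1679. EV-C5a changed none of the 10 by edgeR or by DESeq2, and 0 had an unadjusted p under 0.05 in edgeR, where 0.0126% of all genes were higher and 0.0377% lower. The EV-C5a differences ran from -0.13 for SDF2L1 (95% interval -0.28 to 0.02) to 0.03 for HSP90B1 (-0.04 to 0.10). Between EV-IL1b and EV-TNF 0.00628% of all genes were higher and 0% lower, and that share is 1 gene, HSPA5 itself. Nothing is read from that contrast, since HSPA5 was chosen by it.

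EV-Control cells, which received vesicles of unstimulated cells, were compared with Control cells, where 12.1% of 16691 genes were higher and 9.8% lower, 2024 and 1635 genes, or 1612 and 2169 under total counts. Of the 10 genes 2 were higher and 3 lower, with a median of -0.06. XBP1 was higher by 0.28 (SE 0.069, adjusted p = 0.0027), at 119.7 ± 13.8 against 98.3 ± 1.60 CPM, and HSPA5 by 0.12 (SE 0.037, adjusted p = 0.012). HERPUD1 was lower, at -0.23 (adjusted p = 0.0016), HSP90B1 at -0.16 (adjusted p = 0.0087) and PDIA4 at -0.13 (adjusted p = 0.012). The HSPA5 libraries overlapped, and its adjusted p was 0.069 under total counts, 0.12 without Control replicate 2 and 0.11 without EV-Control replicate 3. Its value also shares the Control libraries with the contrast that chose the gene. HSP90B1 was at -0.10 (adjusted p = 0.15) without Control replicate 3 and -0.13 (0.078) without EV-Control replicate 2. HERPUD1 was at -0.16 (0.06) without EV-Control replicate 3. PDIA4 kept an adjusted p under 0.05 without EV-Control replicate 3 or Control replicate 1, but not without Control replicate 2 (0.056), Control replicate 3 (0.097), EV-Control replicate 1 (0.11) or EV-Control replicate 2 (0.058).

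**Figure D4:**
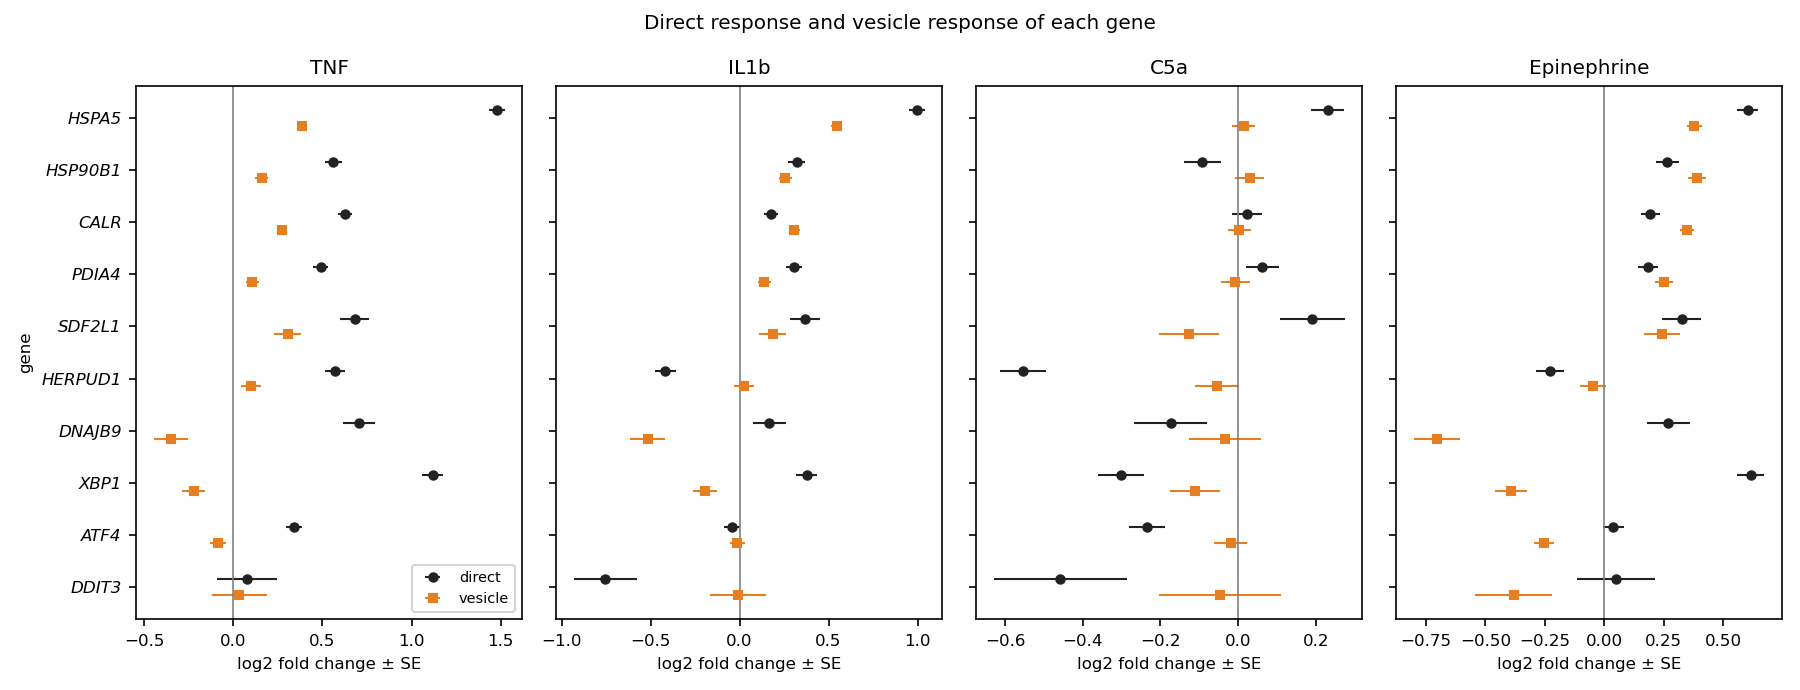
Log2 fold change with its standard error (x axis) of each gene (y axis) for direct stimulation against Control and for vesicles against EV-Control, by stimulus. With Epinephrine XBP1 lies at 0.62 for the direct comparison and -0.39 for the vesicle comparison, while HSP90B1 lies at 0.26 and 0.39.

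The difference between the vesicle and the direct response was tested as an interaction, the log2 change against EV-Control minus that against Control. For Epinephrine XBP1 differed by -0.9999 (SE 0.097, adjusted p = 1.8e-09), DNAJB9 by -0.97 (SE 0.14, adjusted p = 9.2e-08) and ATF4 by -0.28 (SE 0.064, adjusted p = 0.00042). HSPA5 differed by -0.21 (SE 0.052, adjusted p = 0.001), with a rise in both. That value shares the Control libraries with the contrast that chose the gene. CALR had the larger rise with vesicles, by 0.16 (adjusted p = 0.0086), and its adjusted p was 0.056 with only the groups compared. For HSP90B1 the interaction was 0.13 (95% interval 0.00 to 0.26, adjusted p = 0.15). In all, 1 of the 10 was higher and 4 lower, against 11.7% and 12.5% of all genes.

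For TNF 9 of the 10, HSPA5 included, were lower and DDIT3 was not called, against 21.3% of all genes higher and 23.4% lower. XBP1 differed by -1.34 (SE 0.096, adjusted p = 3.3e-13), DNAJB9 by -1.06 (SE 0.13, adjusted p = 1.0e-09) and HERPUD1 by -0.47 (SE 0.080, adjusted p = 1.2e-06), and HSPA5 by -1.09 as a description. Scaling by total counts put the all-gene median at 0.31 there, against 0.02 in the main analysis, and the split at 6891 higher and 2093 lower from 3561 and 3907. XBP1 then differed by -1.05, DNAJB9 by -0.77 and HERPUD1 by -0.18, all with adjusted p under 0.05, while HSP90B1, SDF2L1, PDIA4, CALR and ATF4 lost the call (adjusted p = 0.13, 0.56, 0.15, 0.24 and 0.055). These interactions contain the TNF vs Control contrast by which HSPA5 was chosen. The other 9 genes were listed with HSPA5 when earlier results of these data were known, so their p-values may not be free of that choice.

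For IL1b 3 were higher and 4 lower, HSPA5 among the latter at -0.44 as a description, against 16.9% and 18.3% of all genes, 2827 and 3052 genes, or 3770 and 2273 under total counts with an all-gene median of 0.11. DNAJB9 differed by -0.67 (SE 0.14, adjusted p = 6.0e-05) and XBP1 by -0.56 (SE 0.097, adjusted p = 2.6e-05), with HERPUD1 at 0.46 (SE 0.081, adjusted p = 6.2e-06) in the other direction. DDIT3 differed by 0.76 (adjusted p = 0.0089), or 0.59 (0.057) without IL1b replicate 2. The PDIA4 call at -0.16 was lost without Control replicate 1 (adjusted p = 0.064), EV-Control replicate 3 (0.066) or EV-IL1b replicate 2 (0.062), and under total counts (0.35). The CALR call at 0.14 was lost without Control replicate 3 (0.071), IL1b replicates 1 (0.061) or 2 (0.053), EV-Control replicates 1 (0.056) or 2 (0.058), or EV-IL1b replicate 1 (0.12). For C5a 2 were higher and 1 lower, against 5.87% and 6.05%. HERPUD1 was at 0.51 (SE 0.081, adjusted p = 5.4e-06), HSPA5 at -0.21 (SE 0.052, adjusted p = 0.0036) and ATF4 at 0.22 (adjusted p = 0.012). The HSPA5 value again shares the Control libraries with the contrast that chose the gene. ATF4 lost the call without C5a replicate 1 (0.063), EV-Control replicate 2 (0.057), EV-Control replicate 3 (0.085) or EV-C5a replicate 1 (0.059). Without EV-Control replicate 1 the C5a total was 5, with SDF2L1 (-0.42) and XBP1 (0.27) added.

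Across the 10 group means the 10 genes fell into more than one pattern. On the log2 CPM scale the Pearson correlation with HSPA5 was 0.913 for HSP90B1, 0.91 for SDF2L1, 0.903 for CALR and 0.9 for PDIA4. It was 0.744 for XBP1, 0.602 for ATF4, 0.55 for HERPUD1, 0.471 for DNAJB9 and 0.015 for DDIT3. XBP1 was closer to ATF4 (0.908) and DNAJB9 (0.867) than to HSPA5. Of 9409 genes with a mean of at least 10 CPM outside the 10, those most like HSPA5 were DNAJB11 (r = 0.98), MANF (0.97), POLR3D (0.97), CANX (0.97) and EIF4E2 (0.97). DNAJB11 is a co-chaperone of HSPA5, MANF a reticulum protein that binds it, and CANX the membrane lectin chaperone related to CALR. DNAJB11 was at 64.4 ± 2.90 CPM in Control, 95.4 ± 5.84 with TNF, 87.3 ± 4.93 with IL1b and 75.3 ± 3.94 in EV-Epinephrine. These are descriptions over 10 group means that share libraries, scaling and the high TNF group.

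Beyond the 10, 6 lists of related genes were read, of which 106 of 107 genes passed the low-count filter. Their counts stand against the all-gene shares called higher and lower given above, which were 27.5% and 25.3% with TNF, 24% and 22.6% with IL1b, 11.8% and 10.8% with C5a and 13.5% and 11.8% with Epinephrine, and between 5.9% and 10.5% with EV-TNF, EV-IL1b and EV-Epinephrine. Among 23 other chaperones and folding enzymes of the reticulum, 15 were higher and 3 lower with TNF, 11 and 4 with IL1b, 5 and 2 with Epinephrine, and 1 and 10 with C5a. HYOU1, an Hsp110 that serves HSPA5, rose by 0.78 with TNF and 0.64 with IL1b, and MANF by 0.78 and 0.55. MANF also rose by 0.41 with Epinephrine. ERP29 fell (-0.36 with TNF, -0.34 with IL1b and -0.26 with Epinephrine). In the vesicle groups 7 were higher with EV-TNF and none lower, 8 higher and 1 lower with EV-IL1b, and 9 higher and none lower with EV-Epinephrine, where HYOU1 and PDIA6 rose by 0.25 and 0.25. The list medians were 0.34 with TNF, 0.10 with IL1b, -0.08 with C5a and 0.08 with EV-Epinephrine. EV-Control against Control had 0 of the 23 higher and 10 lower, where 12.1% and 9.8% of all genes were. The vesicle rises are thus against an EV-Control in which part of this list was lower than in Control. Over the 106 genes of the 6 lists, EV-Control had 15 higher and 28 lower than Control. Scaling by total counts left 11 of the 18 TNF calls.

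The degradation genes, 22 tested, had 9 higher and 5 lower with TNF, 6 higher and 9 lower with IL1b, 6 lower with Epinephrine and 11 lower with C5a. The shares lower with TNF and higher with IL1b lie near those of all genes. OS9, a lectin that hands substrates to the ubiquitin ligase, fell (-0.44 with IL1b and -0.39 with C5a), and so did MAN1B1, a trimming mannosidase (-0.56 with IL1b). SELENOS rose by 0.42 with TNF. EV-Control against Control had 0 of the 22 higher and 8 lower. With vesicles 1 was lower with EV-TNF and 2 were lower with EV-IL1b, and 0 were higher with either. EV-Epinephrine had 2 higher and 2 lower, and SYVN1, the ligase HRD1, rose by 0.19 there. These vesicle shares lie near or below those of all genes. Of 20 translocation and retrieval genes 6 were higher and 3 lower with TNF, 9 and 3 with IL1b, 7 and 1 with Epinephrine, and 4 and 1 with EV-Epinephrine. The share higher with TNF lies near that of all genes. With only the groups compared in the fit, the Epinephrine total was 5 rather than 8. KDELR3, a receptor that returns escaped chaperones, fell (-1.01 with TNF and -0.78 with IL1b) and rose by 0.29 with EV-Epinephrine. Under total counts 16 rather than 9 of the list were called with TNF.

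Of 12 sensors and proteases 7 were higher and 4 lower with TNF, 4 and 3 with IL1b, 6 and 3 with Epinephrine, and 2 and 3 with C5a. The share lower with IL1b lies near that of all genes. With only the groups compared, the Epinephrine total was 5 rather than 9. ERN1, which encodes IRE1, went from 12.3 to 30.5 CPM with TNF, a rise of 1.31 (SE 0.12), and rose by 0.76 with IL1b and 0.46 with Epinephrine. It fell by 0.35 with EV-Epinephrine. CREB3L1, a membrane-bound factor related to ATF6, fell (-1.28 with TNF, -1.23 with IL1b, -0.51 with Epinephrine and -0.37 with C5a) and rose by 0.38 with EV-Epinephrine. Its Epinephrine interaction was 0.90 (SE 0.085) and that of ERN1 -0.80 (SE 0.17). EIF2AK3, which encodes PERK, fell (-0.29 with EV-TNF, -0.26 with EV-IL1b and -0.30 with EV-Epinephrine).

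Of 15 genes downstream of PERK, ATF4 and CHOP, 8 were higher and 5 lower with TNF, 4 and 7 with IL1b, 4 and 4 with Epinephrine, and 8 were lower with C5a. The share higher with IL1b lies near that of all genes. ATF3 differed most: it was at 232 CPM in Control, 806 with TNF, 50.0 with IL1b, 37.4 with C5a and 353 with Epinephrine. In EV-Control it was at 589 CPM, in EV-TNF at 391 and in EV-Epinephrine at 119 CPM, a difference of -2.31 (SE 0.18, adjusted p = 4.4e-06). ATF3 is also an immediate early gene of many other stimuli. PPP1R15A (GADD34), which reverses the PERK signal, fell (-1.38 with IL1b and -1.504 with C5a), and PPP1R15B fell with EV-Epinephrine (-0.997). EV-Control against Control had 5 of the 15 higher and 3 lower, where 12.1% and 9.8% of all genes were. Part of this list was thus higher in the EV-Control against which the vesicle falls were measured. In the vesicle groups 5 of the list were lower with EV-TNF, 5 with EV-IL1b and 7 with EV-Epinephrine, with 0 called higher in any of them. The list medians there were -0.15, -0.12 and -0.30, against the all-gene medians given above. With only the groups compared in the fit, 2 and 2 rather than 5 and 5 were called with EV-TNF and EV-IL1b, and 5 rather than 8 with Epinephrine.

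Chaperones outside the reticulum also moved. Of 14 cytosolic and mitochondrial chaperones 12 were higher with TNF, 11 with IL1b, 10 with Epinephrine and 6 with C5a. DNAJA1, an Hsp40, rose by 1.14 with TNF, HSPA8 (Hsc70) by 0.61, and HSPD1, the mitochondrial Hsp60, by 0.87 with IL1b and 0.53 with Epinephrine. HSPB1 fell (-0.34 with IL1b and -0.31 with Epinephrine). With EV-TNF 4 were higher (1 with only the groups compared) and with EV-IL1b 6, and HSPA8 rose by 0.34 and 0.41. With EV-Epinephrine 4 were higher and 1 lower, a total of 5 that was 8 under total counts and 2 with DESeq2. EV-C5a changed none of the 106 list genes by edgeR or DESeq2, with 6 at an unadjusted p under 0.05 in edgeR, and 2 were called without the low-count filter. EV-IL1b against EV-TNF changed none of them by edgeR, with 9 at an unadjusted p under 0.05.

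**Figure D5:**
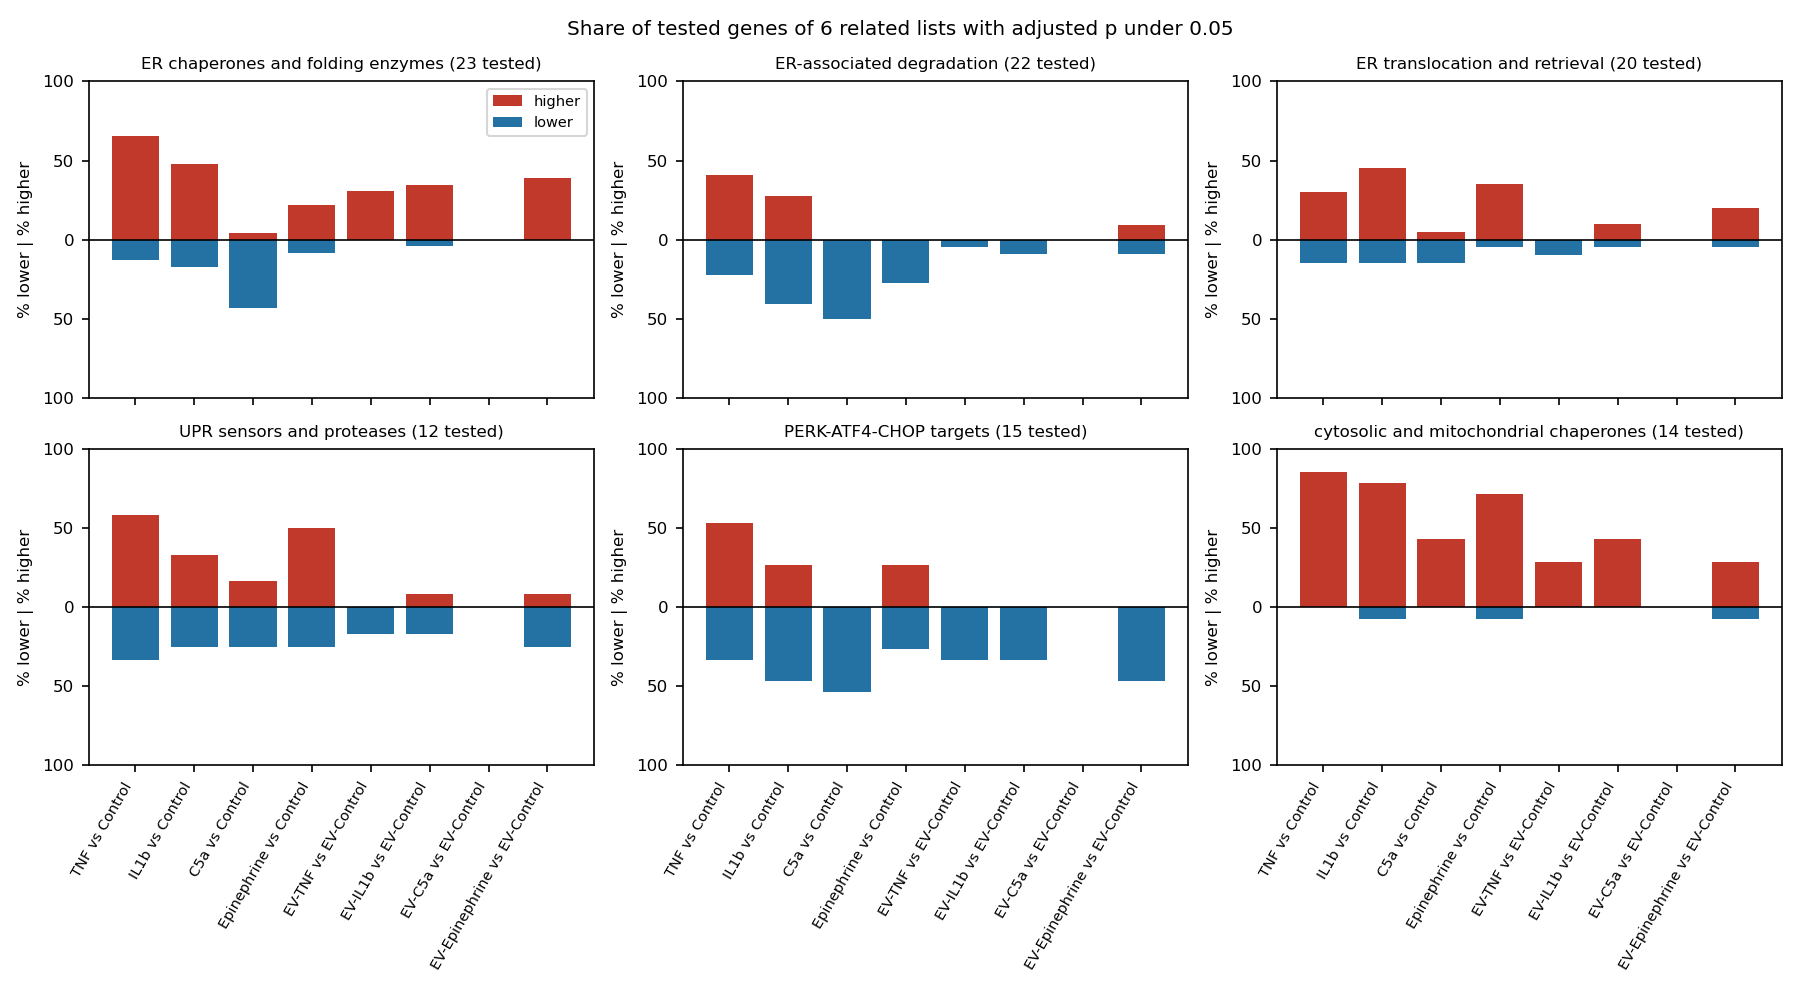
Share of tested genes (y axis, % called higher above 0 and % called lower below 0, adjusted p under 0.05) in 6 related lists for the 8 comparisons with a control (x axis). With TNF 15 of 23 other reticulum chaperones were higher, and with EV-Epinephrine 7 of 15 PERK-ATF4-CHOP targets were lower.

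The ER stress element was also read beyond the 10 genes. Outside them, 12 genes with the element in a promoter window were tested, among them PDIA6, CANX, CRELD2 and ERO1B of the chaperone list. With TNF 6 of the 12 were higher and none lower, where 30.3% of 11239 genes with a window were higher and 27.2% lower. CANX rose by 0.55 and PDIA6 by 0.34, while CRELD2 was at 0.20 (adjusted p = 0.051) and ERO1B at 0.24 (adjusted p = 0.12). With EV-Epinephrine 5 were higher and 1 lower, where 9.75% of 11278 were higher and 11.7% lower. The median log2 difference of the 12 was -0.047 there, against 0.006 over all genes with a window. With EV-TNF 3 were higher and 1 lower, where 6.3% and 8.3% of genes with a window were. EV-IL1b had 4 higher and 1 lower, where 6.7% and 9.1% of genes with a window were. With IL1b 4 were higher and 1 lower (33.3% and 8.33%, against 27.3% and 24.4% of all genes with a window), and with C5a 2 were higher (16.7% against 13.6%), so the higher shares lie near those of all genes.

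The labelled cell type was checked against its markers. All 10 endothelial markers were detected, with PECAM1 at 143 to 287 and CDH5 at 174 to 439.9 CPM over the 30 libraries. The lowest of them were KDR, at 4.80 to 16.1 CPM, and CLDN5, at 14.1 to 51.1 CPM. Summed leukocyte markers were at 1.27 to 3.78 CPM, with CD3E, LYZ and CD68 at 0 in at least 1 library and under 0.5 CPM in all. EPCAM and CDH1 were at most 0.399 and 0.367 CPM, AQP4 was at 0 in every library, and GFAP, RBFOX3 and SNAP25 reached 5.67, 0.399 and 0.78 CPM. CSPG4 (251 to 442 CPM), PDGFRB (34.4 to 88.8 CPM) and KRT18 (148 to 342 CPM) were well detected. The other pericyte and smooth muscle markers were low, ACTA2 at 1.61 to 3.58 CPM and RGS5 at 4.41 to 11.4 CPM. The endothelial sum was 1771 to 1825 CPM in Control, 1850 to 1898 with TNF, 1371 to 1411 with IL1b, 1431 to 1491 with C5a and 1557 to 1629 with Epinephrine. It was 1307 to 1360 CPM in EV-Control and 1304 to 1453 in the other vesicle groups. The summed pericyte and smooth muscle markers were 371 to 422 CPM in Control and 464 to 484 with TNF. They were 333 to 349 CPM with IL1b, 346 to 369 with C5a and 320 to 350 with Epinephrine. In the vesicle groups they were 417 to 437 CPM in EV-Control, 443 to 455 in EV-TNF and 449 to 475 in EV-IL1b. EV-C5a had 406 to 419 CPM and EV-Epinephrine 491 to 509. The summed epithelial markers, nearly all KRT18 and KRT8, were 259 to 282 CPM in Control. With TNF they were 159.8 to 173 CPM and with C5a 349.6 to 362. They were 279 to 293 CPM in EV-Control, 304 to 321 in EV-TNF and 299.8 to 314 in EV-IL1b, and overlapped with their control in the remaining groups. Their part in the results was not tested. In such bulk samples fewer cells of a kind and less RNA per cell cannot be told apart.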

How the data were processed

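For the 30 libraries the authors deposited raw counts by Ensembl gene in 1 table. Per the labels' protocols, a NEBNext Ultra kit and 1 ng of total RNA were used per library. The submitters' processing notes name FastQC, STAR, DESeq2, R 4.4.1 and hg38, and the counting program, annotation and strand setting are not given in the sources used here. Of 63147 lines, 63138 genes were kept: 4 lines without a gene ID (0.00079% to 0.0016% of counts) and 3 repeated IDs were dropped, and 2 genes without counts (TTN and ANK2) were left out. Tests were run with edgeR 4.0.16 under R 4.3.3 (filterByExpr, trimmed mean of M-values, robust quasi-likelihood test, two-sided, Benjamini-Hochberg over all genes tested, threshold 0.05). Comparisons within the 15 direct or 15 vesicle libraries used 15908 and 15918 genes, and those across them used all 30 libraries (16691 genes). CPM divide counts by the library total times its scaling factor, SE are the log2 fold change over the root of the quasi-likelihood F, and 95% intervals are normal intervals from them. No library had a 0 count for any of the 10 genes.

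The 10 genes, the lists and the tests were chosen with earlier results of these data known. All 10 genes were named. Of each list up to 2 genes per direction and comparison could be named, those with the largest log2 fold change among genes called with at least 5 CPM, as were the 5 genes most like HSPA5; PDIA6, CANX, CRELD2 and ERO1B were also named as the list genes with the element. Duplicate libraries were checked: replicate pairs differed with a chi-square per gene of 2.04 to 12.9, so none agree within sampling noise. The edgeR step, tested on simulated data for TNF vs Control with 15335 genes, found 185 of 193 changed genes with 12 false calls. Few genes were changed in that simulation, in both directions and with the same spread for every gene. It therefore cannot show how the scaling does where many genes change, as with TNF. Alternatives were relative log expression and total count scaling, other count filters, DESeq2 1.42.0, a replicate block, other sets of libraries in the fit, a log2 fold change over 0.5 and leaving out each library. Protein sequences were not used here.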

Additional observations from a re-analysis of the deposited data

Results flagged for a closer look

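These 22 results differed between the vesicle response and the direct response to the same stimulus, by a test of the difference itself in edgeR (adjusted p under 0.05). Values are the log2 change against EV-Control minus that against Control, and HSPA5 values for TNF and IL1b are left out because they follow from how the gene was chosen. The HSPA5 values for C5a and Epinephrine share the Control libraries with that choice. For TNF the difference was -1.34 for XBP1, -1.06 for DNAJB9, -0.47 for HERPUD1, -0.42 for ATF4, -0.40 for HSP90B1, -0.38 for PDIA4, -0.37 for SDF2L1 and -0.35 for CALR. Of these 8, XBP1, DNAJB9 and HERPUD1 passed the test under total count scaling too. All 8 contain the TNF vs Control contrast by which HSPA5 was chosen, so their tests may not be free of that choice. For IL1b it was -0.67 for DNAJB9, -0.56 for XBP1, -0.16 for PDIA4, 0.14 for CALR, 0.46 for HERPUD1 and 0.76 for DDIT3. For C5a it was -0.21 for HSPA5, 0.51 for HERPUD1 and 0.22 for ATF4. For Epinephrine it was -0.9999 for XBP1, -0.97 for DNAJB9, -0.28 for ATF4, -0.21 for HSPA5 and 0.16 for CALR. XBP1 and DNAJB9 were each called in opposite directions with Epinephrine and with EV-Epinephrine, though the DNAJB9 call with Epinephrine was lost without any 1 of 4 libraries.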

How the results depend on the processing

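Of 150 values of the members over 15 comparisons, 149 kept direction and call (an uncalled value that crossed 0 by a move within 1 SE counts as kept) with relative log expression scaling, 143 without the low-count filter, 149 at a mean of at least 50 counts, 147 with DESeq2 and 143 with only the groups compared, and 98 of 100 with all 30 libraries in the fit. Values given as a description were instead counted as kept when they moved by at most 1 SE. Under total counts 121 were kept, 9 lost the call, 4 gained it, 12 described values moved by more than 1 SE and 4 reversed. The members called in the TNF interaction fell to 4. The reversed values were DDIT3 at -0.20 with TNF and 0.25 in the TNF interaction, PDIA4 at 0.0097 in IL1b vs TNF and HSP90B1 at 0.033 in the IL1b interaction. The cause was not tested. Between EV-IL1b and EV-TNF 0 of the members were called with DESeq2 and 0 with all 30 libraries. Asking also for a log2 change over 0.5, a stricter call by construction, left 2 members with IL1b, 1 with C5a, 2 with Epinephrine, 4 in IL1b vs TNF, 0 with EV-TNF, 2 with EV-IL1b, 1 with EV-Epinephrine, 0 in EV-IL1b vs EV-TNF, 0 in EV-Control vs Control and 3, 3, 1 and 2 in the TNF, IL1b, C5a and Epinephrine interactions. It lowered 75 of 90 counts over the related lists by more than 1.5 times, against 9 under total counts (4 up), 9 without the filter (2 up), 9 with only the groups compared, 2 with DESeq2 and 3 of 60 with all libraries.

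Leaving out 1 library at a time, the number of members called was 3 to 7 with EV-TNF, 0 to 1 in EV-IL1b vs EV-TNF, 3 to 5 in EV-Control vs Control and 2 to 5 in the C5a interaction. Uncalled values near 0 changed sign in several cases, and 9 of 1140 did so by a move over 1 SE, none passing the test: ATF4 ran from -0.017 to 0.079 with Epinephrine, -0.064 to 0.049 with EV-IL1b and -0.054 to 0.042 with EV-C5a, HERPUD1 from -0.038 to 0.066 with EV-IL1b, and PDIA4 from -0.0036 to 0.060 in EV-IL1b vs EV-TNF. With EV-C5a HSP90B1 ran from -0.027 to 0.063 and CALR from -0.036 to 0.023, and SDF2L1 from -0.18 to 0.067 in the Epinephrine interaction and -0.12 to 0.050 in EV-Control vs Control. With the replicate block 148 of 150 values kept their call, and the members called were 9 with TNF, 8 with IL1b, 5 with C5a and 6 with EV-IL1b, against 9, 8, 4 and 5 without it. Same-numbered libraries correlated at -0.054 to 0.061 (direct) and -0.039 to 0.030 (vesicle) in their deviations, so the numbers were not taken as pairs. DDIT3, at 3.33 to 8.59 CPM, is the gene whose precision depth limits most.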
